A study of Mus musculus with 15 samples.

Results

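The accessible chromatin of CD4+ T cells that lack the transcription factor IRF5 was compared with that of wild-type CD4+ T cells before any stimulation. The assay was ATAC-seq, which cuts and tags accessible DNA with a transposase, so that open regions gather fragments. The comparison rests on the 3 untreated IRF5-/- libraries (knockout, numbered 1, 3 and 4) and the 4 untreated IRF5+/+ libraries (wild type, numbered 1 to 4), which are 7 of the 15 mouse libraries of the study. The other 8 were made 72 h after activation, 4 per genotype, and serve here only to show whether a region differed there too. All groups share the cell type, CD4+ T cells in culture. The labels do not state strain, age, sex, the design of the Irf5 allele or whether each library is its own animal or culture. A p-value here therefore reflects differences among libraries only, and part of that spread may be technical. The peak lists of the 7 libraries were merged wherever peaks shared at least 1 bp, which gave 60385 regions, and 26184 of these held a peak in all 7. The level of a region in a library is its highest fragment pileup per 1000000 fragments left after duplicate removal, written below as FPM.

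IRF5 is an interferon regulatory factor that myeloid cells and B cells use downstream of Toll-like receptors to switch on inflammatory cytokines and type I interferon. Members of its family bind DNA through a helix-turn-helix domain at GAAA-containing sites, often next to ETS or AP-1 factors. In resting CD4+ T cells the open chromatin is set mainly by ETS, RUNX and KLF family factors, and IRF5 has a less settled role there.

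The promoters that the quantitative results turn on are shown first, with the promoter of the targeted gene. Each is the 300 bases from 250 before to 50 after a RefSeq start on GRCm38.p6, the assembly behind mm10, read on the plus strand. The Irf5 and Armcx4 genes begin upstream of their windows, at chr6:29526130 and chrX:134685650, and the sequence there is not printed. Capitals mark matches on either strand to the letters used for KLF/SP (GGGCGGG) and NF-kB sites (GGG and CC with 5 bases between them), which can overlap. The Pgk1 window is chrX:106186850-106187149, the Armcx4 window is chrX:134686269-134686568 and the Irf5 window is chr6:29526375-29526674.
Pgk1: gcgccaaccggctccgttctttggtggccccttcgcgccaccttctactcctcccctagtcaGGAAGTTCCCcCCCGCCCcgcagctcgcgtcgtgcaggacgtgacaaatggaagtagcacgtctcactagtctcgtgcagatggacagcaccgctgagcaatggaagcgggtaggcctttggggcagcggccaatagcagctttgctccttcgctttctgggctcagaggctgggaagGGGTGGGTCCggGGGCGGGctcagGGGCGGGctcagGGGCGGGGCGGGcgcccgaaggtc
Armcx4: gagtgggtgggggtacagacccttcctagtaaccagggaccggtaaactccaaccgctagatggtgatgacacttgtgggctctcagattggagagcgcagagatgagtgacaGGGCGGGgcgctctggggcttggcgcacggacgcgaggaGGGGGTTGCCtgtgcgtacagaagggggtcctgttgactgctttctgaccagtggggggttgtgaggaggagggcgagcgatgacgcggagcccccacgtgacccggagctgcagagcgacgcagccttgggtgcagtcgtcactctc
Irf5: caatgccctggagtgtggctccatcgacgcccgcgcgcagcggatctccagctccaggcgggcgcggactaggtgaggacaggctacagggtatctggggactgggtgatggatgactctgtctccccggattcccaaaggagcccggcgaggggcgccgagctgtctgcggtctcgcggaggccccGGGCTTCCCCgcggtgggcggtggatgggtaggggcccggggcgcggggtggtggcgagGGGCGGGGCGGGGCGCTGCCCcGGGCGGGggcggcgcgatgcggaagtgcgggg
None of the 3 windows holds the IRF core (AANNGAAA), ETS (CCGGAAGT), AP-1 (TGANTCA) or RUNX (TGTGGTT) letters. The Pgk1 window holds 5 KLF/SP matches, the Irf5 window 3 and the Armcx4 window 1.

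The knockout library numbered 3 stood apart from the other 6. Region calls and counts by peak presence are given with and without it. Other results, among them gene lists, region classes, motifs, markers and the surroundings of Irf5, use all 7 libraries unless stated. Over the regions called in all 7 libraries the median level of library 3 was 1.49 FPM, against 3.17 to 4.08 in the other 6, which is 0.414 of their median. It also had the fewest peaks, 29994 against 39807 to 47790. Depth did not separate the genotypes: 20.5 to 28.3 M fragments remained in knockout libraries and 22.4 to 29.0 M in wild-type libraries. The bases covered by peaks were 15.9 to 26.3 Mb in knockout and 28.1 to 34.0 Mb in wild type, without overlap (two-sided exact permutation p = 0.0286, the smallest that 35 arrangements can give; adjusted over 7 measures, p = 0.2). The libraries correlated at Pearson r of 0.966 to 0.979 between genotypes and 0.970 to 0.976 within them when number 3 was left out, across regions, which are not independent replicates.

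**Figure D1:**
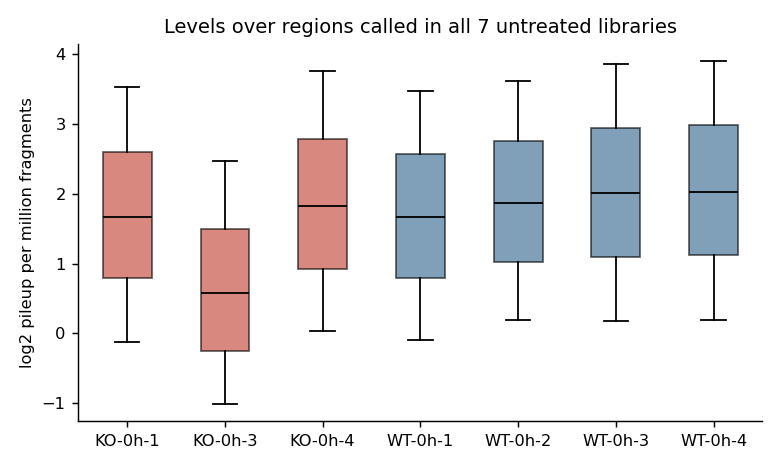
Level (log2 FPM) over the 26184 regions called in all 7 untreated libraries; boxes span the quartiles with the median as a line, and whiskers the 5th to 95th percentile. The knockout library 3 has a median of 0.58 on the log2 scale, below the other 6, which lie between 1.66 and 2.03.

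With levels in FPM, no region differed between genotypes by limma at a Benjamini-Hochberg adjusted p under 0.05, in either direction (0 of 26184, 0%). At an unadjusted p under 0.05, 2 regions were higher and 1658 lower in knockout. The median difference over all regions was −0.51 on the log2 scale, and 99.6% of regions lay below 0. With the authors' fold enrichment in place of pileup the median was −0.0198. The part of library quality in the shift was not tested. In these bulk samples fewer cells with an open site and less opening per cell cannot be told apart. Without knockout library 3 the median in FPM was −0.13 and 4 of 32226 regions passed, 3 higher (0.00931%) and 1 lower in knockout (0.0031%). Because the shift reached nearly all regions, differences are given from here on after each library was centred on its median, so that a difference is relative to all regions. After centring, limma called 18 regions higher (0.0687%) and 1 lower (0.00382%), and the unadjusted counts turned to 1657 higher (6.33%) and 814 lower (3.11%). The split between higher and lower thus depended on the scaling, from 0.12% higher among regions at unadjusted p under 0.05 in FPM to 67.1% after centring.

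The promoter of Pgk1, which encodes the glycolytic enzyme phosphoglycerate kinase, was higher in knockout cells by the widest margin of any called region. Its region at chrX:106186529-106187612 had levels of 24.2, 9.98 and 25.96 FPM in knockout libraries 1, 3 and 4. In wild-type libraries 1 to 4 the levels were 8.17, 7.03, 10.8 and 10.01 FPM. In FPM the groups overlapped only through knockout library 3, which lay below wild-type libraries 3 and 4 and above 1 and 2. Relative to the median of their own library, the values were 2.74 to 2.93 in knockout and 0.94 to 1.41 in wild type on the log2 scale, without overlap. The centred difference was 1.59 ± 0.09 (SE; limma adjusted p = 3.75e-21), a 3.02-fold higher level. Without knockout library 3 and without centring it was 1.499 on the log2 scale (limma adjusted p = 5.94e-09). It passed in all 11 fits of the untreated comparison that centred the libraries, with differences between 1.49 and 1.66, and after quantile normalization (limma adjusted p = 5.34e-15). In FPM with all 7 libraries it did not pass (limma adjusted p = 0.391). Neither did it with fold enrichment in place of pileup, where the difference was 0.72 (limma adjusted p = 0.926).

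The Pgk1 peak called in each library was also shorter in the knockout libraries. It spanned 476 to 679 bp in the 3 knockout libraries and 845 to 1050 bp in the 4 wild-type libraries, while its summit stayed between positions 106186948 and 106186994 of chromosome X, inside the sequence printed above. The median width over all peaks of a library was 453 to 524 bp in knockout and 490 to 630 bp in wild type (two-sided exact permutation p = 0.0857), and its part in the Pgk1 width was not tested. The authors' fold enrichment at that peak was 19.8 to 21.9 in knockout and 10.2 to 15.7 in wild type. A weaker peak further into the gene, with a level of 1.98 to 2.28 FPM in all 4 wild-type libraries, was called in 1 knockout library at 2.12 FPM. Of 14 other regions within 1 Mb of Pgk1, 0 were called, and their centred differences ran from −0.14 to 0.44. The same Pgk1 promoter is also used to drive drug-resistance genes in gene-targeting constructs; the labels do not name the construct behind the Irf5 allele, and its part in these levels was not tested.

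Both other regions that were higher in knockout with and without library 3 lay far from a gene start. The region at chr6:24348008-24348741, 96124 bp from Iqub, a gene for an IQ motif and ubiquitin domain protein, had 1.66, 0.46 and 1.70 FPM in knockout. Wild-type libraries had 0.76, 0.52, 0.53 and 0.79 FPM. Knockout libraries 1 and 4 were above every wild-type library and library 3 was below them all in FPM. After centring the groups did not overlap, and the difference was 1.32 ± 0.25 (limma adjusted p = 0.00805). This site lies 5.18 Mb from Irf5 on the same chromosome.

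The other was chr18:6377247-6378070, 57881 bp from Epc1, a gene for a subunit of a histone acetyltransferase complex. Its level was 4.66, 1.68 and 3.95 FPM in knockout and 1.96, 0.83, 3.20 and 2.69 FPM in wild type. Knockout libraries 1 and 4 were above every wild-type library and library 3 was not, while wild-type library 2 was lowest of the 7. After centring the groups did not overlap, and the difference was 1.24 ± 0.20 (limma adjusted p = 0.000912). Neither site was called after quantile normalization (limma adjusted p of 0.199 at Iqub and 0.105 at Epc1). With the replicate block and centring Epc1 was called (limma adjusted p = 0.0109) and Iqub was not (0.0537). Of the regions within 1 Mb, 0 of 4 near the Iqub site and 0 of 21 near the Epc1 site were called.

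**Figure D2:**
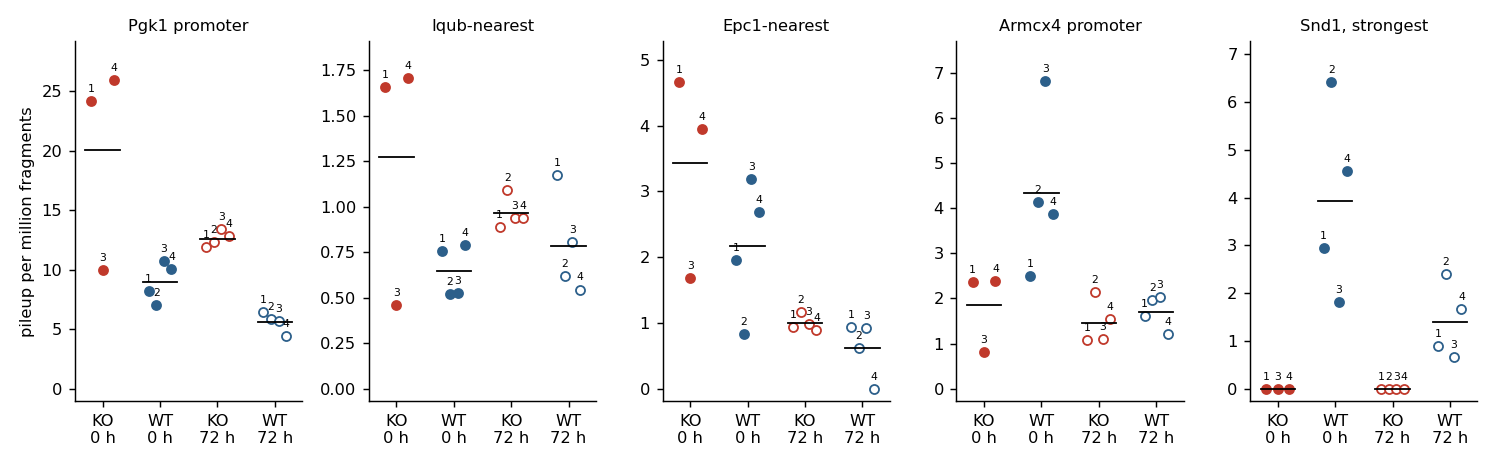
Level (FPM) in each library for 5 regions, with the replicate number beside each point; filled points are untreated and open points 72 h activated libraries, and lines are group means. The Pgk1 promoter was higher in all 4 activated knockout libraries than in any activated wild-type library, and the Snd1 region has no peak in any knockout library, which is drawn at 0.

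The only region that was lower in knockout after centring covered the promoter of Armcx4, an X-linked member of the armadillo repeat family. It lies at chrX:134686132-134687174. Its level was 2.37, 0.80 and 2.39 FPM in knockout and 2.50, 4.14, 6.84 and 3.88 FPM in wild type. The groups did not overlap, and wild-type library 1 was close to knockout libraries 1 and 4. The centred difference was −0.76 ± 0.16 (limma adjusted p = 0.0281), and without knockout library 3, with centring, it was −0.62 and did not pass (limma adjusted p = 0.48). Neither did it pass after quantile normalization (0.264) or with the replicate block and centring (0.0798). Of 18 other regions within 1 Mb, 0 were called.

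Most of the other higher regions were not called without knockout library 3. This held for 15 of the 18 regions higher after centring, whose differences ran from 0.33 to 1.02 with the library and from 0.20 to 0.47 without it. In 5 of the 15 the difference without it was at least 0.9 of that with it, as at chr11:3180923 in Sfi1, where 0.41 became 0.40. Others were smaller, as at Rpusd4, a pseudouridine synthase gene, where 1.02 became 0.47. The fit without it has fewer libraries, and the cause of the lost calls was not tested. In 13 of the 18 library 3 had the highest centred value of the 7. The 18 were mostly strong sites: 15 of the 18 fell in the top of 3 equal bins of regions by level. Regions were not filtered here for repeats or mappability, and the part of either in these calls was not tested. A region 24738 bp from Col19a1, a collagen gene, reached 87.5 to 161.5 FPM in knockout, and 3 regions in Sfi1, which encodes a centrosomal protein, reached up to 49.6 FPM. Differences at these strong sites could be small in FPM. The region at chr2:98662250-98662892, 1030578 bp from Lrrc4c, had 17.6, 17.4 and 16.7 FPM in knockout and 15.2 to 15.9 FPM in wild type. At that site knockout library 3 lay between libraries 1 and 4 in FPM, unlike at the median region, and its centred value was the highest of the 7.

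Of the 18 higher regions, 4 covered a promoter in the table used, where 8827 of all 26184 regions did. That table has no window on chromosome 18, where the Epc1 site lies. Beside Pgk1 these were Usp20, which encodes a deubiquitinase, Eif2ak4, which encodes the amino-acid-sensing kinase GCN2, and Tle1, which encodes a Groucho-type corepressor. Their centred differences were 0.38, 0.37 and 0.38 (limma adjusted p of 0.0281, 0.0431 and 0.0431), and without library 3 they were 0.37, 0.34 and 0.40 and none was called (limma adjusted p of 0.487, 0.521 and 0.481). At the Eif2ak4 promoter the levels were 13.9, 7.08 and 15.7 FPM in knockout against 10.4 to 15.5 FPM in wild type, so the groups overlapped in FPM.

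**Figure D3:**
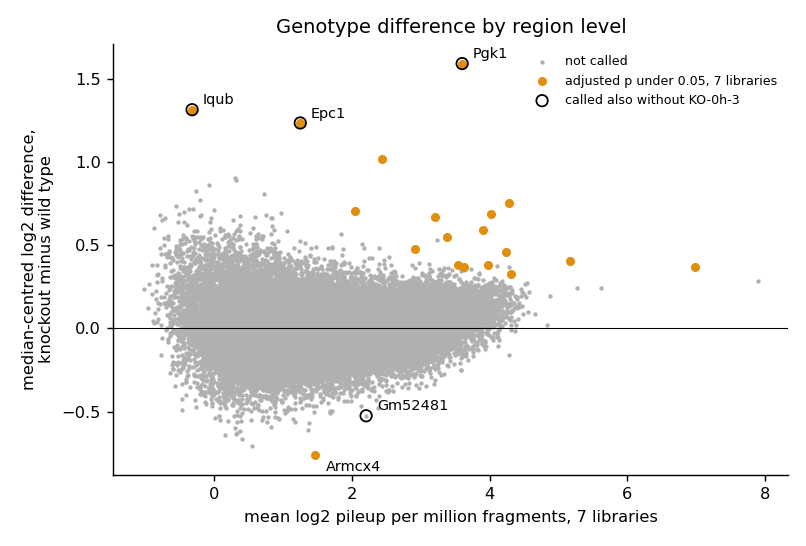
Median-centred log2 difference (knockout minus wild type) against mean log2 FPM for the 26184 regions called in all 7 libraries; orange points have a limma adjusted p under 0.05 and black rings mark regions that also passed without knockout library 3. Pgk1, Iqub and Epc1 lie at 1.24 to 1.59, and most other called regions lie at high levels.

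In FPM, 3328 regions had every knockout library below every wild-type library (12.7%) and 2 had every knockout library above (0.00764%). After centring the counts without overlap were 680 below (2.6%) and 1613 above (6.16%). The 12 regions of the first kind with the lowest limma p, none of which passed adjustment in FPM (limma adjusted p = 0.391 for each), lay in or near 12 genes. One lies in Cd200, an inhibitory ligand gene, at 0.71, 0.46 and 1.07 FPM in knockout and 1.35 to 1.86 in wild type. Another lies in Pde4d, a cAMP phosphodiesterase gene, at 0.46 to 0.88 FPM in knockout and 1.07 to 1.93 in wild type. A further site lies in Iigp1, an interferon-inducible GTPase gene, at 0.50 to 1.02 FPM in knockout and 1.45 to 2.18 in wild type. The others lie in or near Rabgap1l, Prdm2, Hnrnpa2b1, Zdhhc13, Bco2, Dip2c, Mrpl40, Snx9 and Armcx4. Relative to all regions, the 12 had centred differences between −0.76 and −0.47, and 11 of them did not pass after centring either.

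Regions without a peak in some libraries were compared by presence. Of 34201 regions called in 1 to 6 libraries, 323 held a peak in all 4 wild-type and no knockout library (0.944%), and 5 held a peak in all 3 knockout and no wild-type library (0.0146%). By Fisher's exact test none passed adjustment (smallest adjusted p = 0.939), and these 328 regions had the smallest p that 4 against 3 libraries allow, 0.0286. These counts changed with the libraries used. Without knockout library 3 they were 365 and 164. The wild-type-only count was 1327 and 855 without knockout libraries 1 and 4, and 860 and 537 without wild-type libraries 1 and 3. The knockout-only count was 17 and 26 without knockout libraries 1 and 4, and 6 to 17 without 1 wild-type library. With as many peaks kept in each library as in the smallest, the counts were 86 and 33. Of 8272 regions called in all 4 wild-type libraries and fewer than 3 knockout libraries, 6042 were missing only in knockout library 3. Of the regions called in 1 to 6 libraries, with chromosome 18 left out, 11 of 1570 over promoter windows were wild-type-only (0.701%). Elsewhere 303 of 31490 were (0.962%). The absence of a peak is not a measured level of 0: 201 of the 323 regions (62.2%) held a peak in the list the authors called on merged knockout replicates.

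Among the 323, a site within Snd1 had the highest mean level and the highest lowest-library fold enrichment, as a description. Snd1 encodes a tudor and nuclease domain coactivator, and the site at chr6:28929168-28929750 lies near the end of the gene, 0.597 Mb from Irf5. Its level in wild-type libraries 1 to 4 was 2.94, 6.41, 1.82 and 4.55 FPM, with the authors' fold enrichment between 10.8 and 13.4. No knockout library had a peak there, although peaks with a pileup of 8 to 9 fragments were called elsewhere in those libraries, and the merged knockout list had none. Another site at chr6:28931866-28932197 had 0.94, 2.72, 1.01 and 2.34 FPM in wild type and another at chr6:28920986-28924256 had 0.53 to 1.41, again with no peak in an untreated knockout library. At the Snd1 promoter the levels overlapped, at 7.84 to 21.04 FPM in knockout and 14.95 to 22.1 in wild type, with a centred difference of 0.14 (limma adjusted p = 0.56).

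After activation the strongest Snd1 site kept its pattern. Wild-type libraries 1 to 4 had 0.89, 2.39, 0.65 and 1.67 FPM at 72 h, and none of the 4 knockout libraries had a peak. At the neighbouring site chr6:28931866-28932197 activated knockout library 4 had a peak of 0.37 FPM. The wild-type libraries ranked in the same order by number at both times, 2, 4, 1 and 3; the labels do not say that a number marks the same animal. It was 1 of 2 regions, with a site in Agap3, that held a peak in all wild-type and no knockout libraries at both times. Of the 323 regions, 68 had no peak in any activated library and 91 had a peak in all 8. At 72 h the share of regions with a peak in all wild-type and no knockout libraries was 0.634%, and the reverse share was 0.0427%.

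The other wild-type-only sites that ranked highest by the −log10 q of the merged wild-type peaks differed in strength and enrichment. The Tnrc6c site, in a gene of microRNA silencing, had up to 2.61 FPM with a fold enrichment of only 2.25 to 2.74. The Adora2a site, 19241 bp from an adenosine receptor gene, had 0.71 to 1.66 FPM and a fold enrichment of 4.82 to 12.9. Sites in Zfp292 and Fndc3b had 2.41 to 4.41 and 1.78 to 2.103 FPM. All 4 held a peak in the merged knockout list.

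Of the 5 knockout-only regions, 4 are described here. One lies in Rsbn1l at 0.80 to 2.05 FPM in knockout, and sites at Tgds, Ugt1a1 and the H2al2a region ran from 0.38 to 0.88. All 5 held a peak in the list called on merged wild-type replicates, and none held a peak in an activated knockout library.

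Peaks at Irf5 itself remained in knockout cells. The promoter region chr6:29526327-29528318 had 1.69, 0.92 and 2.53 FPM in knockout and 2.19, 2.103, 2.22 and 2.53 FPM in wild type. The groups overlapped, and the centred difference was 0.02 ± 0.16 (limma adjusted p = 0.984). The next region, chr6:29528398-29529417, had 1.16 and 0.96 FPM in knockout libraries 1 and 3, no peak in library 4, and 1.70 to 1.98 FPM in wild type. Which part of Irf5 was removed is not stated in the labels, so these peaks do not check the genotype labels.

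Around Irf5 the flanking chromosome was otherwise close to all regions. Within 10 Mb, 166 regions were called in all 7 libraries, with a median centred difference of 0.01 against 0.02 over all regions. The Iqub site was the only one called there, and 16 had an unadjusted p under 0.05 (9.64%), against 9.44% of all regions. Of the 266 regions there that were called in some libraries, 6 (2.26%) held a peak in all wild-type and no knockout library, against the 0.944% given above: the 3 Snd1 sites, 1 near Kdm7a and 2 near Slc37a3, the last 3 between 9.66 and 9.85 Mb from Irf5.

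**Figure D4:**
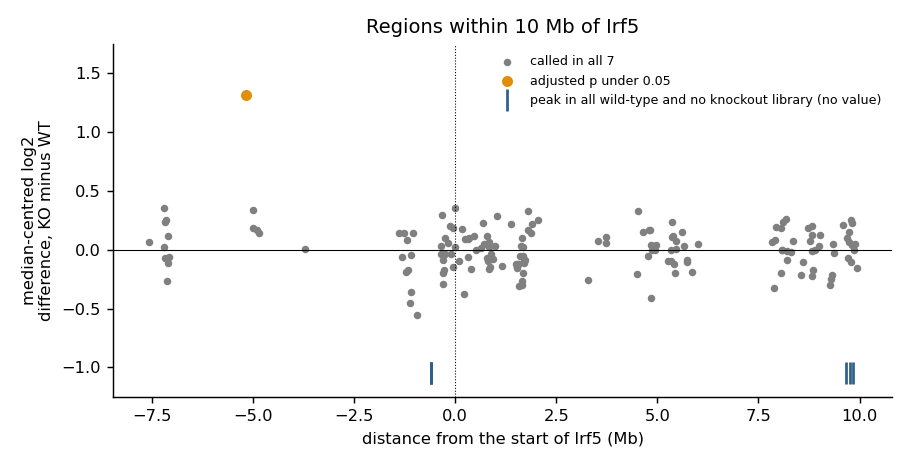
Median-centred log2 difference of the 166 regions within 10 Mb of Irf5 that were called in all 7 libraries, by distance from the gene start in Mb; blue ticks mark regions with a peak in all wild-type and no knockout library, which have no value. The Iqub site stands at 1.32 and 5.18 Mb before Irf5, and 3 ticks overlie each other at the end of Snd1.

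Dock2, a Rac activator needed for lymphocyte migration, was examined because a second mutation in Dock2 has been described in some Irf5-deficient mouse colonies. The labels give no Dock2 genotype. Its promoter region at chr11:34782543 had 8.75, 4.40 and 10.2 FPM in knockout and 9.10 to 11.1 in wild type. The groups overlapped and the centred difference was 0.05 ± 0.09 (limma adjusted p = 0.899). The 4 other Dock2 regions called in all 7 libraries had centred differences from −0.27 to 0.37, and none passed. Sites at the far end of the gene were weak, at 0.44 to 0.87 FPM, and were called in 1 or 2 wild-type libraries and at most 1 knockout library.

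Chromatin at the genes of T cell identity, differentiation and the IRF5 pathway was compared through 27 lists, with each region given to its nearest gene within 100 kb. The lists took in 1502 regions of 371 genes, and the Pgk1 promoter was the only one called. List medians of the centred difference ran from −0.05 to 0.08, against 0.02 over all regions. Some list medians changed without knockout library 3. The regulatory T cell list went from −0.05 to −0.10 and the follicular helper and inhibitory receptor list from −0.03 to 0.03, against 0.03 over all regions. In the Toll-like receptor and IRF5 pathway list, 41 regions of 19 genes had a median of −0.02, with 1 higher and 1 lower at unadjusted p under 0.05. The lowest p was at the promoter shared by Fam3a and Ikbkg, which encodes the NEMO subunit of the IKK complex, with a difference of 0.29 (limma adjusted p = 0.311). Among interferon-stimulated genes, 0 of 26 regions reached an unadjusted p under 0.05, and among type I interferon signalling genes 0 of 47, where 6.33% and 3.11% of all regions did so in each direction. The other interferon regulatory factors had 1 higher and 1 lower of 42 regions, at Irf8 (0.23) and Irf2 (−0.25), neither called.

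Naive-state and identity genes gave no called region. Of 148 regions at T cell identity genes, 4 were higher and 4 lower at unadjusted p under 0.05. Of 219 regions at naive and quiescence genes, 13 were higher and 7 lower. The lowest p values there were at Bach2 (−0.30), a repressor that keeps T cells naive, at the promoter of Klf2 (0.24), which controls homing receptors, and at Ccr7 (−0.35), the lymph node chemokine receptor. Limma adjusted p was 0.298, 0.333 and 0.337. At the Bach2 site the levels were 5.83, 2.83 and 7.89 FPM in knockout and 8.43 to 9.74 in wild type, so the groups did not overlap in FPM.

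Signalling and effector lists gave no call either. A Myc site, at a target of the T cell receptor response, had 2.36, 0.88 and 2.87 FPM in knockout and 3.21 to 4.59 in wild type (centred difference −0.50 ± 0.14, limma adjusted p = 0.211). The follicular helper and inhibitory receptor list had 1 higher and 7 lower of 71 regions at unadjusted p under 0.05, which is 1.41% and 9.86% against 6.33% and 3.11% of all regions, among them Cd200 (−0.64), Bcl6 (−0.39) and Il21 (−0.52). At the same threshold the regulatory T cell list had 1 higher and 3 lower of 55. Th1, Th2 and Th17 lists had 3, 1 and 0 higher and 2, 0 and 1 lower of 55, 22 and 44 regions, again at unadjusted p under 0.05. In the NF-kB list a site at Nfkbiz, which encodes an atypical IkB protein, had a difference of −0.38 (limma adjusted p = 0.24).

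Metabolic genes held the single call of the lists. Of 58 regions at glycolysis genes, the Pgk1 promoter was called, and 5 were higher and 3 lower at unadjusted p under 0.05. The promoter of Hif1a, which encodes the hypoxia-responsive activator of glycolytic genes, came next at 0.35 ± 0.08 (limma adjusted p = 0.0723). Its levels were 12.9, 5.74 and 14.4 FPM in knockout and 9.33 to 13.1 in wild type. In the amino acid transport list, sites at Slc38a1 (−0.54) and Slc7a5 (−0.39), transporters that T cells use for glutamine and leucine, were the lowest by p and did not pass (limma adjusted p of 0.295 and 0.302). At unadjusted p under 0.05 the mTORC1, ribosomal protein and cell cycle lists had 5, 3 and 1 higher and 1, 2 and 5 lower regions of 39, 43 and 59. None of these was called. The shares were 12.8%, 6.98% and 1.69% higher and 2.56%, 4.65% and 8.47% lower, against 6.33% and 3.11% of all regions.

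**Figure D5:**
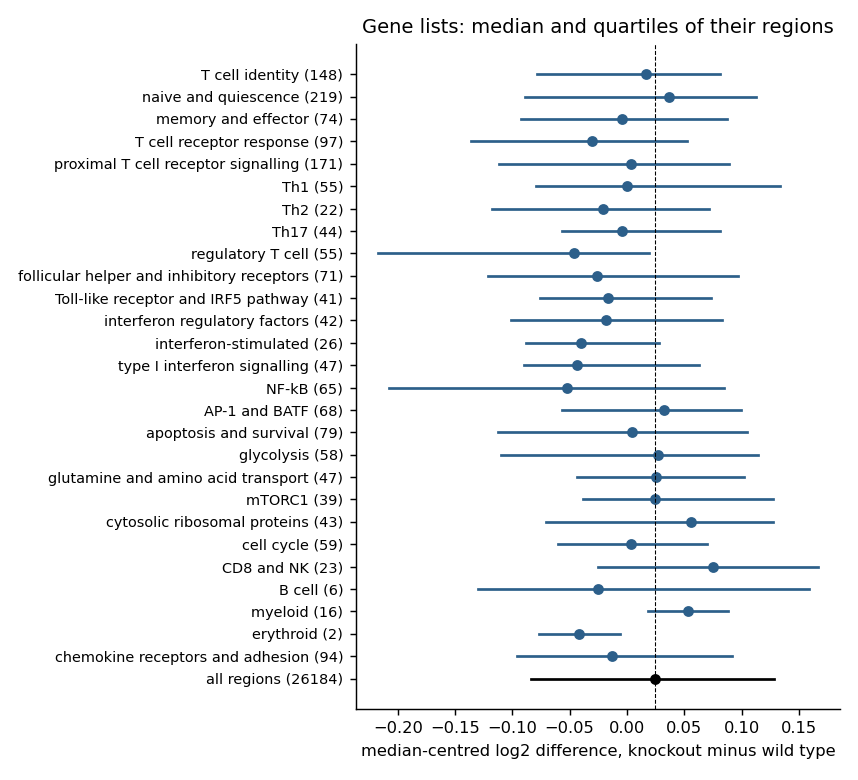
Median (point) and quartiles (line) of the median-centred log2 difference over the regions of each gene list, with the number of regions in brackets; the dashed line is the median over all regions. The list medians lie between −0.05 and 0.08.

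Marker genes were checked against the labelled cell type. All 12 T cell markers had a region called in all 7 libraries, while the B cell markers Cd79a, Cd79b and Ms4a1, the myeloid marker Lyz2 and the erythroid markers Alas2 and Hbb-bt had no peak assigned in any. Divided by each library's median level, the summed T cell marker level was 96.4 to 105 in knockout and 102 to 108 in wild type. The CD8 and NK sum, with regions at 9 of 10 markers and none at Ncr1, was 23.2 to 29.0 in knockout and 24.3 to 27.9 in wild type. The B cell sum, with regions at 6 of 10 markers, was 3.31 to 4.81 and 4.76 to 5.08, the myeloid sum, at 9 of 10, was 14.8 to 18.1 and 16.7 to 18.8, and the erythroid sum, at 4 of 6, was 1.79 to 2.99 and 2.25 to 2.40. The sums overlapped in each of these lists, and their part in the results was not tested.

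Classes of regions had close medians and unlike shares of low p values. The 8827 regions over a promoter window had a median centred difference of 0.03, regions elsewhere in gene bodies 0.02, and regions outside genes 0.03. Without knockout library 3 these medians were 0.04, 0.01 and 0.02. At an unadjusted p under 0.05, 8.55% of promoter regions were higher in knockout and 3.58% lower, against 5.22% and 2.996% in gene bodies and 5.19% and 2.68% outside genes. By level, 12.04% of the regions in the top of 3 equal bins by level were higher in knockout and 2.97% lower, against 3.57% and 4.53% in the middle bin and 3.37% and 1.83% in the bottom bin. Of the 8827 promoter regions, 5199 were in the top bin. In the bottom, middle and top bins, 1.99%, 2.61% and 12.8% of promoter regions were higher and 2.54%, 5.51% and 2.87% lower. Regions without a promoter window had 3.63%, 3.995% and 10.98% higher and 1.71%, 4.15% and 3.15% lower. In 4 classes of promoters by GC content the medians were −0.004, 0.02, 0.04 and 0.05, from the lowest GC to the highest.

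Promoters with and without IRF letters had close medians and close shares of low p values, while the split by direction differed. The IRF core letters occur in 23.9% of the 32851 promoter windows and in 1742 of the 8827 promoter regions called in all 7 libraries. Those regions had a median centred difference of 0.009, against 0.03 in the 7085 regions without, and 0 of them were called. The share at unadjusted p under 0.05, both directions together, was 11.998% with and 12.2% without the letters. Of the 1742 regions with them, 121 were higher and 88 lower in knockout at that threshold. Among all 8827 promoter regions 8.55% were higher and 3.58% lower. The split by direction was not tested. The ETS, AP-1 and RUNX letters occur in 3.89%, 7.81% and 5.27% of all windows, and promoter regions that hold them had medians of 0.02, 0.02 and 0.01. The KLF/SP and NF-kB letters occur in 25.6% and 50.8% of all windows, with medians of 0.04 and 0.03 in promoter regions that hold them. These shares describe letters in a window and not bound sites.

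At 72 h limma after centring called 0.445% of 37563 regions higher and 0.399% lower in knockout. Some regions called in untreated cells were called again after centring. Of the 20 regions called in untreated cells after centring or without knockout library 3, 19 had a region called in all 8 activated libraries. Of these, 16 had the same direction at 72 h after centring (11 without centring), 7 of them were called, and 0 were called in the opposite direction. These 7 were Pgk1 and 6 regions that were not called in untreated cells without knockout library 3: those at Col19a1, Chl1 and Rpusd4, both near Lrrc4c and 1 of the 3 in Sfi1, with limma adjusted p of 7.36e-05 to 0.00558 at 72 h. Without centring at 72 h none of these 6 passed (limma adjusted p of 0.0533 to 0.35), while Pgk1 did (4.59e-17). At the Pgk1 promoter the activated libraries had 11.9, 12.3, 13.4 and 12.8 FPM in knockout and 6.45, 5.84, 5.70 and 4.39 FPM in wild type, without overlap. The centred difference at 72 h was 1.43 ± 0.09 (limma adjusted p = 9.15e-18), and its change from 0 h to 72 h did not pass (limma interaction adjusted p = 0.698). The activated Pgk1 peaks were again shorter in knockout, at 591 to 677 bp against 746 to 1503 bp. The peaks of wild-type libraries 2 and 4, at 1503 and 1180 bp, reached into the next site, and the median width over all peaks was 377 to 438 bp in knockout and 416 to 507 bp in wild type. The Iqub site did not pass at 72 h, with 0.89 to 1.09 FPM in knockout and 0.54 to 1.18 in wild type (centred difference 0.61, limma adjusted p = 0.151). At the Epc1 site all 4 activated knockout libraries had a peak, at 0.89 to 1.17 FPM, and 3 of 4 wild-type libraries, at 0.62 to 0.93. The Armcx4 promoter had a centred difference of 0.00 at 72 h (limma adjusted p = 0.998).

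The 1 region that was lower in knockout without library 3 rested on knockout library 1. It lies at chrY:90739297-90740638, nearest to the predicted gene Gm52481, and had 1.66, 2.68 and 6.28 FPM in knockout libraries 1, 3 and 4 and 5.59 to 7.12 FPM in wild type. Without library 3 the difference was −0.97 (limma adjusted p = 0.00956). With all 7 libraries after centring it was −0.52 and did not pass (limma adjusted p = 0.333), and without knockout library 1 it was 0.03 relative to all regions. The activated knockout library with the same number was also the lowest of its group, at 2.09 FPM against 5.45 to 6.92 in the other 3. Another region nearest to that gene, chrY:90804506-90805276, had 3.67 FPM in untreated knockout library 1, 5.47 and 14.3 in libraries 3 and 4, and 9.93 to 14.6 in wild type. Library 1 was not the lowest at chrY:90799259 and chrY:90803124, with 4.06 and 4.24 FPM against 3.37 and 2.87 in library 3. At chrY:90744297 and chrY:90811460 it had 0.988 FPM, against 0.995 and 1.91 in library 3.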

How the data were processed

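The data are the authors' MACS2 peak lists of 15 libraries, with lists called on merged replicates; the 7 untreated libraries were compared. The tools named in the submitters' processing notes are Trim Galore 0.5.0, Bowtie2 2.2.9 and HOMER 4.10.4, with the build mm10. Per the file headers, MACS2 2.1.1.20160309 ran on read pairs with no control, with 1 fragment kept per position and q-values cut at 0.05. Per the file headers, the pileup the authors deposited is a coverage signal and the deposited fold enrichment a ratio to local background. The −log10 q is a score of each peak. The fold enrichment and the −log10 q are the authors' and describe, rank or filter peaks. Fold enrichment also replaced pileup in an alternative fit. Levels are the highest pileup of a region per 1000000 fragments after filtering (FPM), of which the untreated libraries had 20.5 to 29.0 M.

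Genotypes were compared with limma 3.58.1 in R 4.3.3 (moderated test with an intensity trend, Benjamini-Hochberg adjustment, threshold 0.05) on log2 levels with no pseudocount over regions called in all libraries fitted. Library measures were compared by exact permutation and presence of peaks by Fisher's exact test. Tables were made with Python 3.11.15, pandas 2.3.3, numpy 2.4.6 and scipy 1.17.1. Only the limma fit was checked on simulated data, with noise drawn independently for each region. Genes and promoter windows came from RefSeq tables of GRCm38.p6; the promoter table covers 17491 of 21896 protein-coding genes and no chromosome 18 window, so chromosome 18 is left out of promoter classes.

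Named were Irf5, Dock2 and Snd1, up to 12 regions per direction with the lowest limma p whose groups did not overlap and whose sign held without knockout library 3, up to 3 genes per list with the lowest p after centring, 6 regions per direction that separate by presence, and every called region. The comparison, the regions and the lists were chosen with earlier results of these data known. The alternatives tried are given at the end. Some items chosen by these rules are not reported here.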

Additional observations from a re-analysis of the deposited data

Results flagged for a closer look

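Among the 4 untreated wild-type libraries, library 1 stood apart in its number of peaks, 39807 against 47625 to 47790 in the other 3. Library 4 stood apart from the other wild-type libraries at 2 of the named regions. It had 8.43 FPM at the Sfi1 region chr11:3133286-3134123, where the other 3 had 7.44 to 7.45. It had 2.22 FPM at the Snx9 region chr17:5840724, where the other 3 had 1.69 to 1.74. Chance flags about 1 in 20 groups of 4 in this way.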

How the results depend on the processing

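The counts of called regions depended on the scaling. Against 0 higher and 0 lower in FPM, there were 18 and 1 after median centring, 1 and 0 after quantile normalization, 372 and 15706 with a quality weight per library (0.0106 for knockout library 3), 19 and 4 with weights and centring, 0 and 4 for regions called in at least 2 libraries with a pseudocount of 0.1, 2 and 66 with 0.5, and 7 and 0 for all 15 libraries with centring. Without 1 library there were 0 to 3 higher and 0 to 1 lower. With centring and without 1 library there were 3 to 46 higher and 0 to 12 lower: 16 and 1, 3 and 1, and 33 and 12 without knockout libraries 1, 3 and 4, and 16 and 2, 15 and 0, 39 and 4, and 46 and 3 without wild-type libraries 1 to 4. Centring combined with left-out libraries, weights or all 15 libraries was added after seeing the data.

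The median difference of −0.51 became 0.0246 after centring, 0.0221 with weights and centring, 0.0273 for all 15 libraries with centring, 0.0015 after quantile normalization and −0.0198 with fold enrichment in place of pileup. Without 1 library it lay between −0.744 and −0.130. With centring it was 0.0437, 0.0218 and 0.0386 without knockout libraries 1, 3 and 4, and 0.0262, 0.0352, 0.0378 and 0.0417 without wild-type libraries 1 to 4. Same-numbered libraries deviated from their group means with correlations of −0.04, −0.01 and 0.24 for numbers 1, 3 and 4. Pairs with unlike numbers had −0.13 to 0.09. These values do not settle whether the numbers pair the samples. Wild-type library 4 comes from an alignment numbered 5, per the file headers, so whether its number matches is in doubt. With the replicate block 0 regions were called. With the replicate block and centring 26 were higher and 0 lower, with a median of 0.0225.

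The 323 wild-type-only regions became 86 when each library kept as many peaks as the smallest, 911 when peaks had to cover at least 0.5 of the region, and 365 to 1327 without 1 library (1327 and 855 without knockout libraries 1 and 4, 860 and 537 without wild-type libraries 1 and 3). The 5 knockout-only regions became 2 at a −log10 q of at least 5, 33, 3, and 6 to 164 under the same changes, with 164 when knockout library 3 was left out. Bases covered differed by −10.07 to −4.88 Mb without 1 library, at exact permutation p of 0.0667 to 0.133, where the design cannot reach 0.05. Fragments differed by −2.01 to 1.885 M (0.868 without wild-type library 2) and duplicate rate by −0.0267 to 0.0133 (0.005 without knockout library 1).

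Of 39 named regions, 31 kept their direction relative to all regions under every alternative run. The Irf5 promoter gave −0.1108 to 0.0935 without 1 library (0.0935 and 0.0068 without knockout libraries 1 and 3, 0.0585 and 0.0035 without wild-type libraries 1 and 4), 0.0191 after quantile normalization, and 0.0683 and 0.0582 with pseudocounts of 0.1 and 0.5. Of the 5 Dock2 regions, 1 gave −0.0167 and another 0.0841 with fold enrichment, 1 gave −0.011 under the replicate block, with and without centring, and −0.0112 to 0.1163 without 1 library, 1 gave 0.125 with weights, and the promoter gave −0.0064 after quantile normalization, −0.0055 with weights and −0.0113 with a pseudocount of 0.5. Col19a1 gave −0.0015 after quantile normalization, and the Gm52481 region −0.8417 to 0.0332 without 1 library. The cause of these changes was not tested.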
